A study of Mus musculus with 115 samples.

Results

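The 39 genes described here encode proteins of vesicle docking, membrane fusion and regulated exocytosis. They were chosen by symbol for those known roles, with earlier results of these data known, and limited to autosomes. The symbols were matched to Ensembl mouse identifiers, and all 39 were found among the 45699 genes of the deposited table. Their levels, in TPM (a length-corrected share of each library's transcripts, scaled to the same total in every library), were read in all libraries and set against the level of Chga (chromogranin A), a protein of dense-core granules that marks neuroendocrine cells.

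The libraries are labelled as prostate tumour tissue of (TRAMP x WSB/EiJ) F2 mice, all transgene positive. The labels give no pathology and the study's methods speak of prostate tissue, so it is not certain that every library holds tumour. Each library has its own number in its title; the study's methods name fewer mice than there are libraries, so whether each comes from a different mouse is not certain, and they are treated as independent here. TRAMP mice, kept on C57BL/6J, express the SV40 T antigen from a minimal probasin promoter, which is active in androgen-responsive prostate epithelium, and WSB/EiJ is a wild-derived strain whose alleles segregate in the F2. The labels give 1 group with no treatment and no age; the study's methods place collection at a fixed age or at humane end points, and state that ventral prostate was taken where the prostate was small, so the libraries may differ in the tissue they hold. RNA was total RNA of bulk tissue depleted of ribosomal RNA, and the labels state a minimum of 43000000 read pairs. Since the table holds TPM and no read counts, the depth of each single library is unknown and a gene without signal can only be called listed at 0.

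In neurons and endocrine cells, vesicles are brought to the plasma membrane by Rab3 proteins and their effectors, primed by Unc13 and Cadps proteins, and fused by the SNARE proteins Snap25, Stx1a and Vamp2 when a synaptotagmin binds calcium. Complexins hold the assembled SNARE complex, and Nsf with its SNAP cofactors takes it apart again after fusion. In the prostate this machinery is known from scattered neuroendocrine cells and from nerve fibres and ganglia of the stroma, and poorly differentiated TRAMP tumours can take on neuroendocrine traits.

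The libraries did not form a single cloud. The first principal component of all genes held 48.7% of the variance and separated 79 libraries from 36. Among the 79, the level of Chga separated again, into 72 libraries with Chga between 0.06 and 0.81 TPM (median 0.285) and 7 with Chga between 1.19 and 4.84 TPM. The 36 had Chga between 0.15 and 479.1 TPM (median 57.2). Within them, 4 libraries lay apart, labelled W1118, W1050, W1915 and W1790, with Chga of 0.15, 1.15, 1.23 and 2.55 TPM, while the other 32 ran from 21.2 to 479.1 TPM. A set of 4 is below the minimum of 6 libraries for a fit of its own, so each result in the 36 is given with and without these 4, a choice made after the data were seen. The highest Chga, 479.1 TPM, was in the library labelled W1065, and the next was 291.0 TPM. Relations were computed within the 72, the 7 and the 36, with the 72 and the 7 joined only as an alternative, and a difference of slopes between these sets was not tested.

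The labelled tissue was checked against markers. Krt8, a luminal keratin, had a median of 187.5 TPM in the 72 and 218.5 TPM in the 7. In the 36 its median was 3.40 TPM, so this luminal marker was low in most of these libraries. The 4 libraries set apart differed from the other 32 in this respect, with Krt8 of 466, 630.5, 369 and 526 TPM. Mki67, a proliferation marker, had a median of 83.5 TPM in the 36 and 4.32 TPM in the 72. The numbers in the titles also differed between the sets: 63 of the 72, 5 of the 7 and 15 of the 36 libraries had numbers in the 4000s, and none of the 4 did. The labels do not say what these numbers stand for.

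Over all libraries, 16 of the 39 genes reached 1 TPM in at least 50% of the libraries, and 36 did so at a limit of 0.1 TPM. The same count at 1 TPM was 13 in the 72, 29 in the 7 and 33 in the 36. Only genes averaging 1 TPM or more over the libraries were tested, and 35 of the 39 passed. Rims1 (mean 0.816 TPM), Syt5 (0.833), Sv2c (0.974) and Rph3a (0.148) did not pass and have no slope here.

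**Figure D1:**
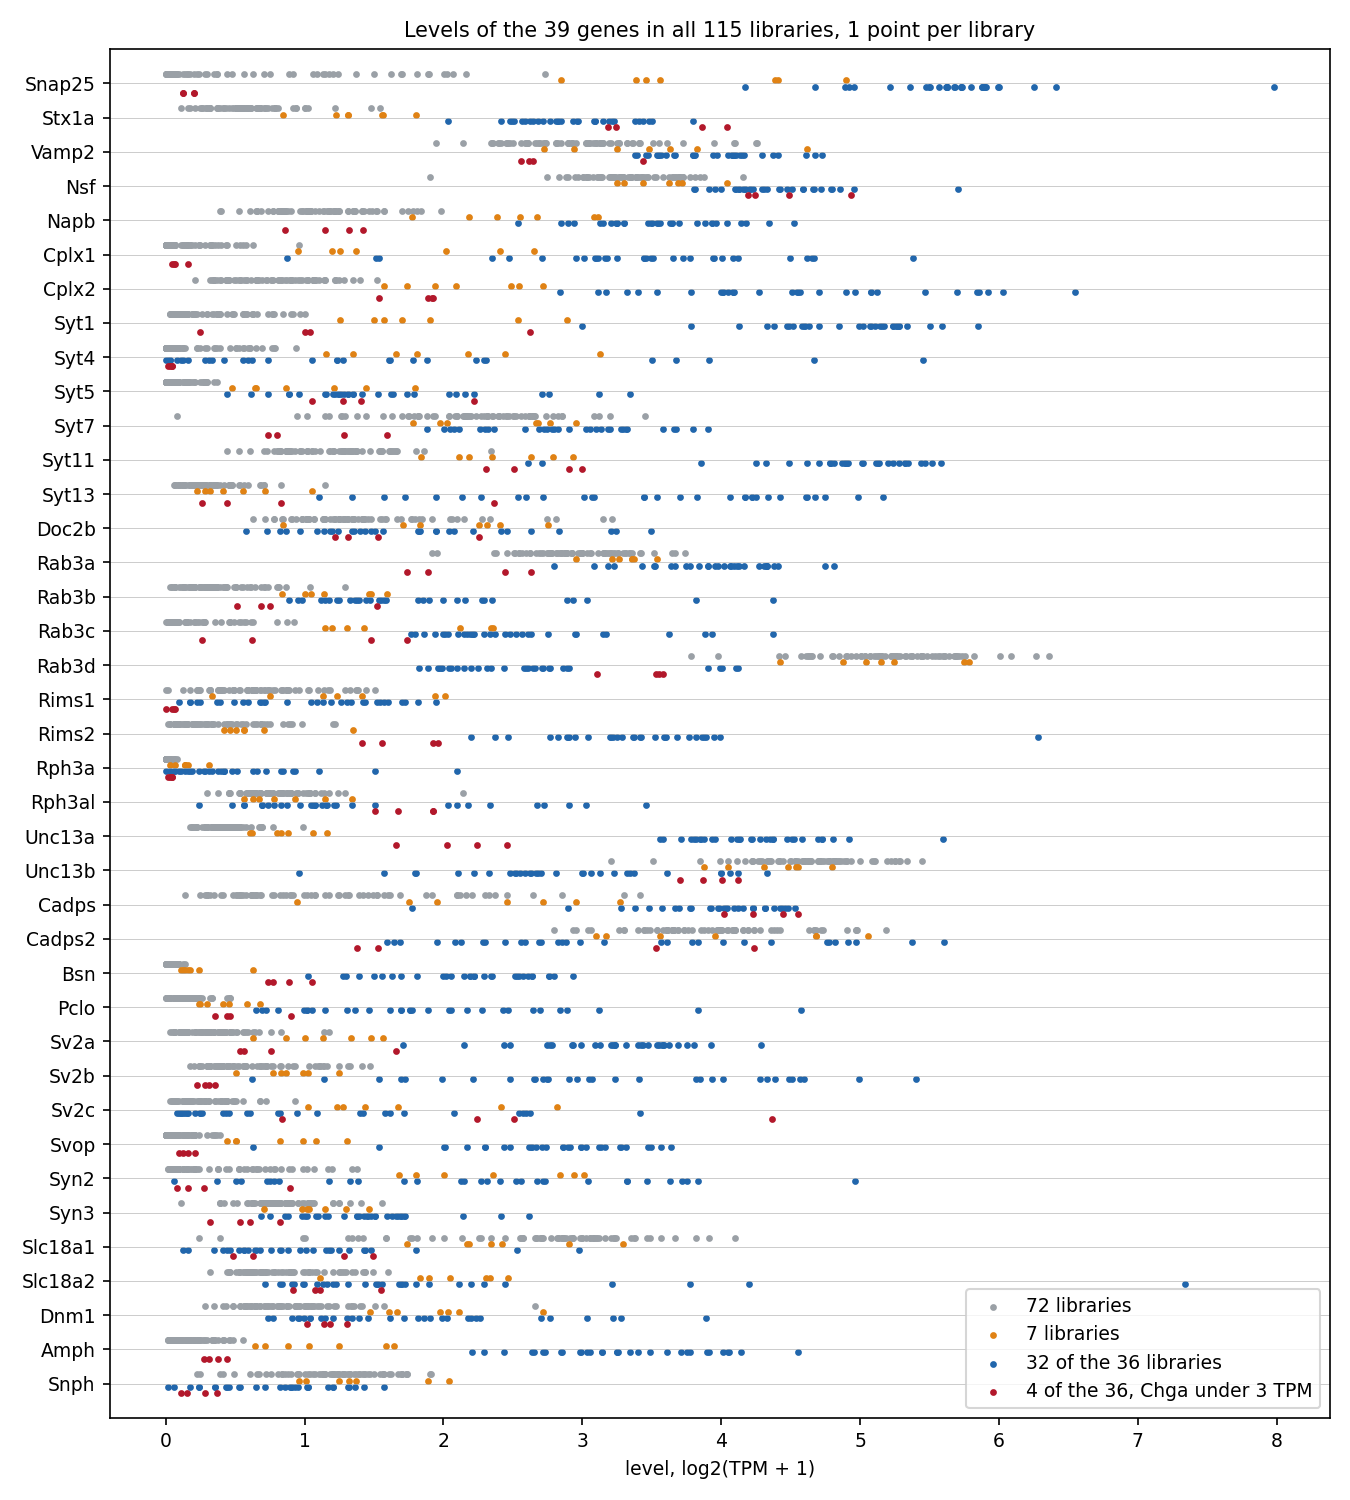
Level of each of the 39 genes, log2(TPM + 1), in every library, by set of libraries; each point is a library. Snap25 sits at or below 5.64 TPM in the 72 and between 17.02 and 251.9 TPM in the 32, while Rab3d has a median of 36.8 TPM in the 72 and 5.18 TPM in the 36.

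Among the 72 libraries with Chga below 1 TPM, 10 of the 35 tested genes rose with Chga (0.78% of all 14618 genes tested rose) and 0 fell (0% of all genes fell). The 10 were Snap25, Napb, Cplx1, Syt1, Syt4, Rab3c, Svop, Syn2, Slc18a2 and Amph, and the median slope of the tested members was 0.32 log2 units per log2 unit of Chga, against 0.24 over all genes. At an unadjusted p under 0.05, 20 of the 35 had a positive slope and 0 a negative one in this limma fit, where all 14618 genes gave 1623 and 17. The limit of 1 TPM was set on the mean over all libraries, and within the 72 the means of 9 of the 10, Snap25 included and Napb excepted, are below it, so these were tested because of their levels elsewhere; with no limit, 13 of 39 members rose and 0 fell, beside 276 up and 0 down of 36316 genes. With median-of-ratios scaling the median slope of all genes was 0.0011, all-gene calls moved to 281 up and 580 down, and 9 members were called up and 0 down. In the 36 libraries, 21 of 35 rose (9.94% of 14611 genes rose) and 0 fell (24.2% of all genes fell). Without the 4 libraries of low Chga, 6 of 35 rose (8.81% of 14610 genes rose) and 0 fell (0.198% of all genes fell), and 5 of these 6 were also among the 21. The 6 calls depend on the scaling. The share of TPM in the 20 largest genes fell with Chga in the 32 (r = -0.480) and rose with it in the 36 (r = 0.503), and the median slope of all genes in the 32 was 0.07. In alternatives chosen after the data were seen, limma called 0 members in the 32 after rescaling without the 20 largest genes (0.446% of all genes up and 0.096% down), 1 with median-of-ratios scaling, Rph3al (1.67% up and 0.459% down), and 0 with the share of the 20 largest genes as a covariate (0.397% up and 0.0342% down). The slopes of the 6 were positive in all 3 alternatives, between 0.19 and 0.60, each with an unadjusted p under 0.05. These 6 were picked by their calls in the same 32 libraries, so these slopes are a description and no further test. The calls in the 32 given below for single genes carry this limit. For genes outside the members, only the shares over all genes are given under these alternatives, and no calls of single genes. In the limma fit of the 36, 25 of the 35 had a positive slope at an unadjusted p under 0.05 and 1 a negative one, where all 14611 genes gave 1850 and 4553. In the fit of the 32, 8 of the 35 had a positive slope at that limit and 0 a negative one. All 14610 genes gave 3628 and 221 there, so the share of members with a positive slope was near that of all genes. Rescaling without the 20 largest genes moved the all-gene calls in the 36 from 1452 up and 3536 down to 3039 up and 2312 down, and the members called up to 24 with 0 down. In the 7 libraries, limma called 0 of 35 genes up (0% of 14564) and 0 down (0%), and at an unadjusted p under 0.05 it found 12 with a positive slope and 0 with a negative one, where all genes gave 265 and 50. Altogether 117 relations of members with Chga were computed over the 72, the 7 and the 36, another 39 without the 4 libraries, and further slopes in the subsets named with them; adjusted p values are over all genes of a fit. Bulk RNA cannot tell fewer cells of a type from less RNA per cell. The scale of log2(TPM + 1) compresses levels well below 1 TPM, and in the 72 this holds for Chga as well as for many genes. With 0.1 added to TPM in place of 1, the median slope of all genes in the 72 was 0.097 against 0.24, and 10 members rose.

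**Figure D2:**
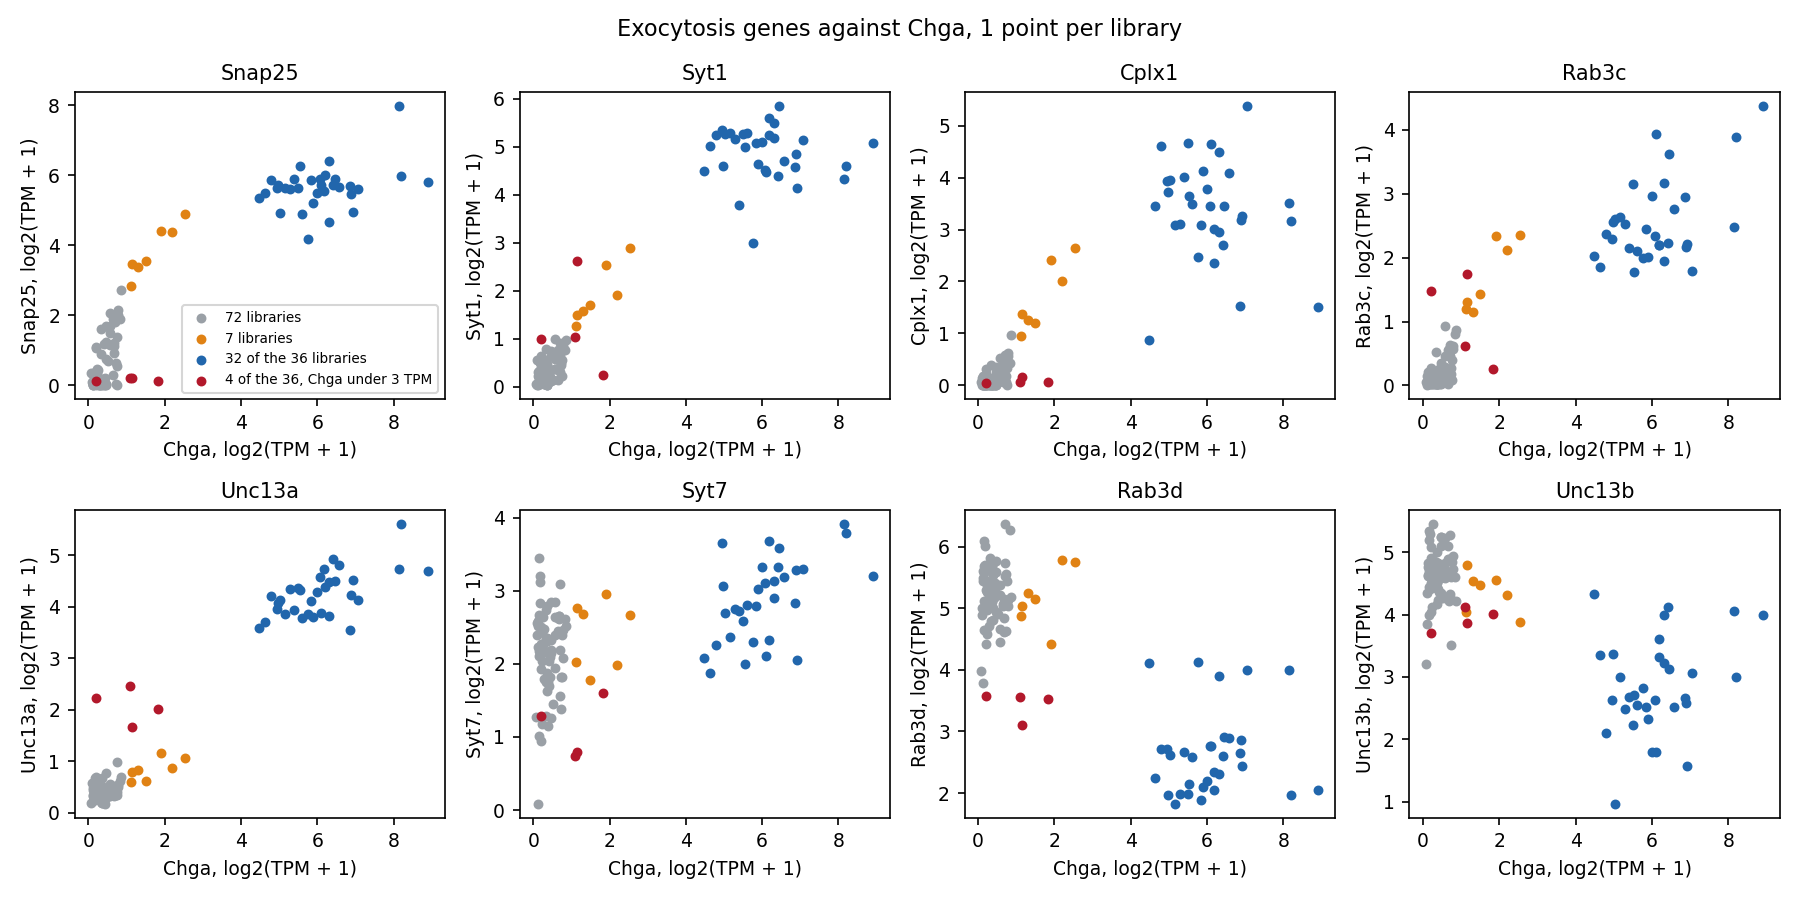
Level of selected members against Chga, both as log2(TPM + 1), 1 point per library, coloured by set of libraries. Snap25 rises with Chga within the 72. In the 7 it is higher in libraries of higher Chga, but limma did not call it there (adjusted p = 0.944), and within the 36 the 4 libraries of low Chga lie at 0.09 to 0.15 TPM, far below the other 32.

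Snap25 (ENSMUSG00000027273, GRCm38 chr2:136713453-136782428) encodes the SNARE protein of the plasma membrane that bridges syntaxin and the vesicle. In the 72 its level ran from 0 through a median of 0.14 to 5.64 TPM, and the highest value was in the library labelled W242, which also had the highest Chga of the set. Most of these libraries were thus near 0, with 20 of the 72 at 1 TPM or more. Its slope there was 2.16 (SE 0.30, limma adjusted p = 7.3e-07), with r = 0.651 and rho = 0.487 (permutation p = 1e-05 for both, the smallest that the permutations can give), and r stayed at 0.597 when the 2 libraries with the most extreme Chga, by distance from its median, were dropped. In the 36 the level ran from 0.09 through 48.4 to 251.9 TPM, the last in the library labelled W1182, and the second highest was 84.2 TPM. The 4 libraries of low Chga held 0.09, 0.15, 0.15 and 0.09 TPM, and the other 32 all exceeded 17 TPM, so the groups did not overlap. The slope in the 36 was 0.85 (SE 0.08, limma adjusted p = 2.7e-09), and without the 4 it was 0.21 (limma adjusted p = 0.185), which did not pass.

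Stx1a (ENSMUSG00000007207), the syntaxin of the same complex, had levels of 0.08 to 1.92 TPM in the 72 (median 0.47) and 3.10 to 15.5 TPM in the 36 (median 6.81). It was not called in either set. In the 4 libraries of low Chga, where Snap25 was near 0, Stx1a stood at 13.5, 15.5, 8.48 and 8.11 TPM, which includes the highest value of the series. Vamp2, the SNARE of the vesicle membrane, was at 1 TPM or more in every library of the series, with medians of 6.70 TPM in the 72 and 13.03 TPM in the 36. It rose in the 36 by 0.18 per log2 unit (limma adjusted p = 0.000203), but its slope without the 4 was 0.07 and was not called. Nsf, the ATPase that takes SNARE complexes apart, was also above 1 TPM in every library of the series and was called in no set. Its highest value was 51.3 TPM in the library labelled W1512, against 30.1 TPM in the next. Napb, the neuronal SNAP cofactor of Nsf, had levels of 0.31 to 2.96 TPM in the 72 and rose there with a slope of 0.83 (SE 0.16, limma adjusted p = 0.000809). In the 36 it also rose (slope 0.37, SE 0.05), and without the 4 its slope was 0.14 (limma adjusted p = 0.227).

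Both complexins were low in the 72 and high in most of the 36. Cplx1 (ENSMUSG00000033615, chr5:108518554-108550024) ran from 0 through 0.04 to 0.95 TPM in the 72, from 0.94 to 5.29 TPM in the 7 and from 0.03 through 9.20 to 40.6 TPM in the 36. It rose in the 72 with a slope of 0.58 (SE 0.09, limma adjusted p = 1.2e-05). It also rose in the 36, by 0.44, but without the 4 its slope was -0.15 and was not called, so the call in the 36 rests on those 4 libraries. Cplx2 (ENSMUSG00000025867, chr13:54371349-54383917) ran from 0.16 through 0.73 to 1.87 TPM in the 72 and from 1.90 through 17.2 to 92.5 TPM in the 36. Its slope of 0.58 in the 72 missed the threshold (limma adjusted p = 0.0576), whereas in the 36 it rose by 0.53 (SE 0.07, limma adjusted p = 1.4e-07). Without the 4 it rose by the same 0.53 (SE 0.13, limma adjusted p = 0.0145; r = 0.573, permutation p = 0.00051; rho = 0.482, permutation p = 0.00571), and without the 2 most extreme r was 0.465. It was not called there under the other scalings (limma adjusted p between 0.0559 and 0.0874).

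Among the synaptotagmins, of which Syt4, Syt11 and Syt13 are not known as typical calcium sensors, Syt1, the fast calcium sensor of synaptic vesicles, and Syt4, a form of dense-core vesicles, rose in the 72. Syt1 (ENSMUSG00000035864, chr10:108497650-109010982) ran from 0.02 through 0.155 to 1.00 TPM there, with a slope of 0.76 (SE 0.12, limma adjusted p = 2.2e-05). Syt4 (ENSMUSG00000024261, chr18:31437808-31447406) ran from 0 through 0.035 to 0.92 TPM, with a slope of 0.71 (SE 0.12, limma adjusted p = 3.7e-05). Both were thus below or at 1 TPM in every library of the 72. In the 36, Syt1 had a median of 29.3 TPM and rose by 0.51 (limma adjusted p = 7.9e-06), but its slope without the 4 was -0.05 and was not called. Syt4 was uneven in the 36, with a median of 0.525 TPM, 42.8 TPM in the library labelled W897 and 24.4 TPM in the next, and it was not called (slope 0.15). Syt7, a slow calcium sensor of high affinity, was called where Syt4 was not. It was at 0.06 to 9.93 TPM in the 72 (median 3.77) and was not called there, but rose in the 36 by 0.34 (SE 0.04, limma adjusted p = 1.9e-07). Without the 4 it rose by 0.29 (SE 0.08, limma adjusted p = 0.0258), and without the library labelled W1065 as well its slope was 0.35 (limma adjusted p = 0.0163), but in the 32 it was not called under the other scalings (limma adjusted p between 0.114 and 0.225). Syt11 had medians of 1.35 TPM in the 72 and 28.7 TPM in the 36, and Syt13 of 0.22 and 9.90 TPM. Both rose in the 36 (slopes 0.29 and 0.28), and both slopes were negative without the 4 (-0.07 and -0.21) and not called. Syt5, below the limit for the limma fit, had r = 0.571 with Chga in the 72 (permutation p = 1e-05; rho = 0.451, permutation p = 0.0001), and 0.511 without the 2 most extreme. Of the other members outside the limma fit, Sv2c is given below with the vesicle membrane proteins, Rims1 had r = 0.0432 in the 72 (permutation p = 0.719; rho = 0.0424, permutation p = 0.722) and Rph3a r = 0.393 (permutation p = 0.0005; rho = 0.515, permutation p = 1e-05). Doc2b, a soluble calcium sensor, was called in no set.

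The 4 Rab3 proteins, the small GTPases that tether vesicles, differed in where they were high. Rab3d (ENSMUSG00000019066, chr9:21907491-21918192), the form known from exocrine secretory granules, ran from 12.7 through 36.8 to 81.1 TPM in the 72 and from 2.54 through 5.18 to 16.4 TPM in the 36. It was the most abundant of the 39 in the 72. It was called in no set, with slopes of 0.21 in the 72 and -0.10 in the 36. Rab3c (ENSMUSG00000021700, chr13:110054187-110280996), a form of neurons and endocrine cells, ran from 0 through 0.05 to 0.90 TPM in the 72, far below Rab3d, and from 0.20 through 3.79 to 19.8 TPM in the 36. It rose in the 72 with a slope of 0.70 (SE 0.10, limma adjusted p = 1.4e-06; r = 0.670 and rho = 0.553, permutation p = 1e-05 for both), and r was 0.613 without the 2 most extreme. In the 36 it rose by 0.30 (limma adjusted p = 5.5e-05), and without the 4 by 0.31 (limma adjusted p = 0.0454). That last call rests on the library labelled W1065, which held the highest Rab3c, since without it the slope was 0.20 (limma adjusted p = 0.243). Rab3b, also highest in that library at 19.7 TPM, rose by 0.25 in the 36 and by 0.41 without the 4 (limma adjusted p = 0.0323), and without W1065 as well its slope was 0.25 (limma adjusted p = 0.214). Rab3a was at 1 TPM or more in every library of the series and rose in the 36 by 0.29 (limma adjusted p = 3.2e-06). Without the 4 its slope was 0.13 and was not called.

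Of the Rab3 effectors, Rph3al (noc2), a protein of secretory granules of endocrine and exocrine cells, was called without the 4 and in no other of these sets. Its level in the 32 ran from 0.18 through 1.15 to 9.97 TPM, highest in the library labelled W1182. There it rose by 0.52 (SE 0.11, limma adjusted p = 0.0068; r = 0.630, permutation p = 0.00017; rho = 0.527, permutation p = 0.00212; r = 0.477 without the 2 most extreme), and without W1065 by 0.50 (limma adjusted p = 0.0156). It was called in the 32 with median-of-ratios scaling (slope 0.48, limma adjusted p = 0.0277), but not after rescaling (0.0707) or with the covariate (0.0963). With the 4 included its slope was 0.09 and was not called, and those 4 libraries held 1.84, 2.79, 2.80 and 2.19 TPM. Rims2, an active zone protein that binds Rab3, had medians of 0.22 TPM in the 72 and 8.62 TPM in the 36, with 76.8 TPM in the library labelled W1514 and 14.9 TPM in the next. It rose in the 36 by 0.27 (limma adjusted p = 0.000879), and its slope without the 4 was 0.10 and was not called.

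Of the 4 priming proteins, Unc13a and Unc13b (munc13-1 and munc13-2) were opposite in level. Unc13b (ENSMUSG00000028456, chr4:43058953-43264871) ran from 8.21 through 23.99 to 42.5 TPM in the 72 and from 0.95 through 6.51 to 19.1 TPM in the 36. Unc13a (ENSMUSG00000034799, chr8:71624417-71671757) ran from 0.13 through 0.33 to 0.98 TPM in the 72, below 1 TPM in every library, and from 2.16 through 16.5 to 47.3 TPM in the 36, above 1 TPM in every one. Unc13b was called in no set. Unc13a was not called in the 72 (slope 0.19, limma adjusted p = 0.406), but in the 36 it rose by 0.38 (SE 0.04, limma adjusted p = 1.5e-09; r = 0.878, permutation p = 1e-05; rho = 0.682, permutation p = 2e-05; r = 0.836 without the 2 most extreme). Without the 4 it rose by 0.26 (SE 0.06, limma adjusted p = 0.0114), and without W1065 as well by 0.29 (limma adjusted p = 0.0103), but in the 32 it was not called under the other scalings (limma adjusted p between 0.0590 and 0.144). Cadps, which primes dense-core vesicles, had medians of 1.01 TPM in the 72 and 15.8 TPM in the 36 and was called in no set. The 4 libraries of low Chga held Cadps at 20.8, 22.5, 17.8 and 15.2 TPM, near or above the median of the 36. Cadps2 was at 1 TPM or more in every library of the series, and its slope of 0.53 in the 32 narrowly missed the threshold (limma adjusted p = 0.0517). The active zone scaffolds Bsn (bassoon) and Pclo (piccolo) were at or below 0.10 and 0.38 TPM in the 72. They rose in the 36 by 0.16 and 0.26 and were not called without the 4 (slopes -0.09 and 0.24).

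**Figure D3:**
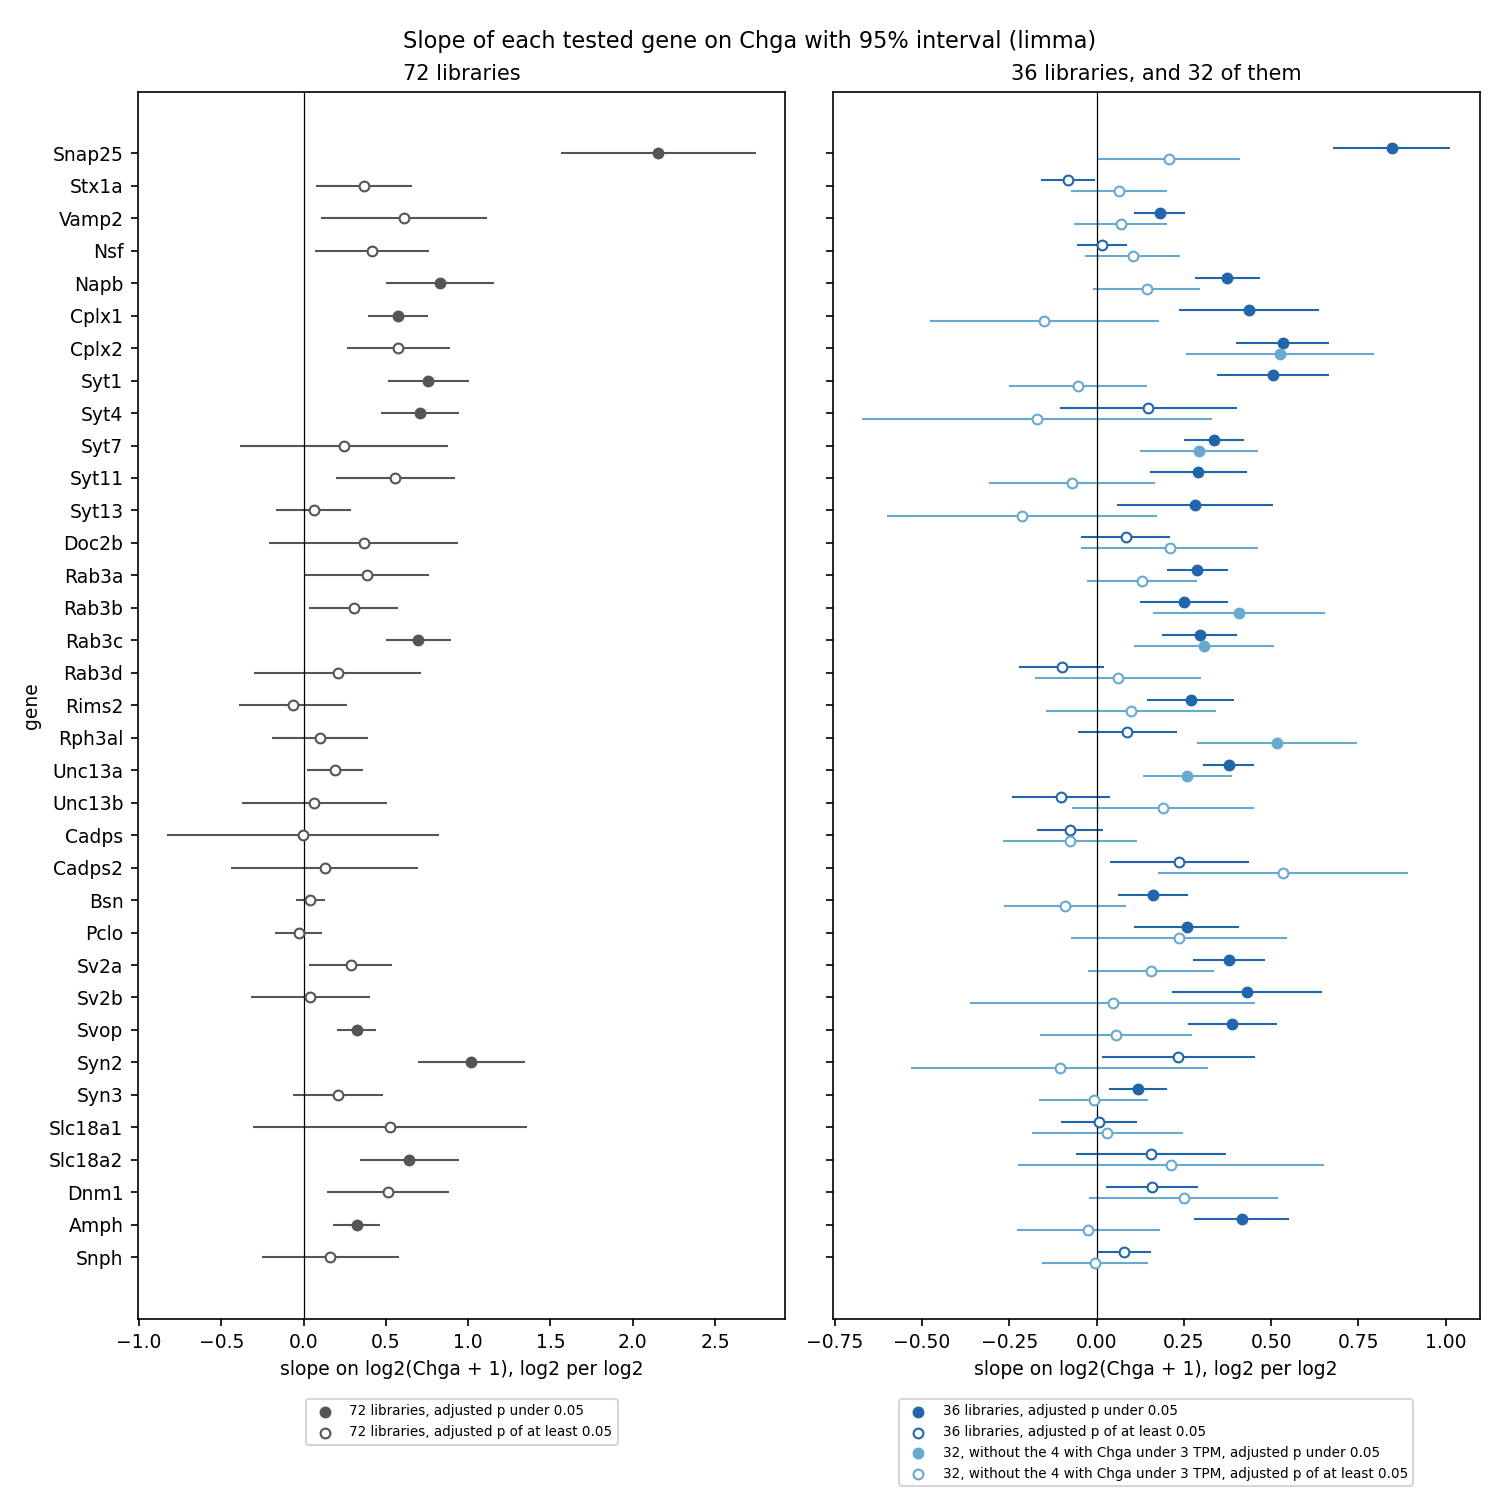
Slope on Chga of each of the 35 tested genes with its 95% interval, for the 72 libraries (left) and for the 36 and the 32 without low Chga (right); filled points passed the limma threshold. Snap25 has the slope of 2.16 in the 72, and 6 genes are filled for the 32, among them Rph3al, Cplx2 and Unc13a, of which only Rph3al was also called with median-of-ratios scaling.

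The vesicle membrane proteins and synapsins, which coat and hold synaptic vesicles, were each lower in the 72 than in the 7 by their medians. Svop, a transporter-like vesicle protein, ran from 0 through 0.025 to 0.31 TPM in the 72 and rose there by 0.32 (SE 0.06, limma adjusted p = 0.000235). Syn2 (ENSMUSG00000009394, chr6:115134902-115282006) ran from 0.01 through 0.145 to 1.60 TPM in the 72 and from 2.2 to 7.06 TPM in the 7, with no overlap. It rose in the 72 by 1.02 (SE 0.16, limma adjusted p = 1.7e-05). Svop rose in the 36 as well (slope 0.39, limma adjusted p = 1.1e-05), and its slope without the 4 was 0.06 and was not called. Sv2a, Sv2b and Syn3 rose in the 36 by 0.38, 0.43 and 0.12, and none of the 3 was called without the 4. Sv2c, below the limit for the limma fit, was at 0.02 to 0.91 TPM in the 72, where r with Chga was 0.591 and rho 0.536 (permutation p = 1e-05 for both), and r was 0.541 without the 2 most extreme. Its highest value was 19.6 TPM in the library labelled W1915, which is among the 4 of low Chga, and the next was 9.68 TPM.

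The vesicular monoamine transporters load vesicles with catecholamines, serotonin or histamine. Slc18a1 (VMAT1) ran from 0.18 through 6.22 to 16.2 TPM in the 72 and from 0.09 through 0.81 to 6.88 TPM in the 36, and was called in no set. Slc18a2 (VMAT2; ENSMUSG00000025094, chr19:59260896-59296012) ran from 0.25 through 0.685 to 2.03 TPM in the 72 and rose there by 0.64 (SE 0.15, limma adjusted p = 0.0115). That call was lost under 4 of 14 alternatives, among them rescaling without the 20 largest genes and median-of-ratios scaling (slopes 0.33 and 0.30). In the 36 its median was 1.87 TPM and it was not called, but the library labelled W370 held 161.2 TPM, against 17.4 TPM in the next. Amph (amphiphysin; ENSMUSG00000021314, chr13:18948205-19150921), which works with dynamin in taking membrane back, ran from 0.01 through 0.11 to 0.47 TPM in the 72 and rose by 0.32 (SE 0.07, limma adjusted p = 0.00481). Within the 63 libraries of the 72 numbered in the 4000s its slope was 0.29 (limma adjusted p = 0.0707), which did not pass. It rose in the 36 by 0.42, and its slope without the 4 was -0.02. Dnm1 and Snph were called in no set.

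Within the 63 libraries numbered in the 4000s, 9 of the 35 members rose and 0 fell, beside 80 up and 0 down of 14615 genes, with Snap25 at 1.93 (limma adjusted p = 0.000151). Within the 15 libraries of the 36 numbered in the 4000s, whose Chga ran from 21.2 to 120.6 TPM, limma called 0 of 14596 genes in either direction, so none of the 21 calls was seen there, and the slope of Snap25 was -0.09. Of the 21 members, 9 had a negative slope there, Snap25 among them, and these are listed in the closing section. Among the positive slopes were 0.31 for Unc13a (95% interval 0.09 to 0.53) against 0.38 in the 36 and 0.31 for Svop (-0.08 to 0.70) against 0.39. Syt7 had 0.24 (-0.10 to 0.57) against 0.34. Syt13 had 0.51 (-0.21 to 1.23) against 0.28 in the 36 and -0.21 in the 32. Using ranks in place of values left 3 members called in the 36, beside 176 genes up and 8 down of all 14611.

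In the 7 libraries with Chga of 1 to 5 TPM, some members followed the order of Chga and others did not. In order of Chga, which was 1.19, 1.21, 1.46, 1.83, 2.76, 3.56 and 4.84 TPM, Snap25 was at 6.19, 10.02, 9.44, 10.8, 20.22, 19.97 and 28.8 TPM. Syt4 was at 1.23, 1.55, 2.15, 2.51, 4.44, 3.52 and 7.74 TPM in the same order, and Svop at 0.36, 0.42, 0.42, 0.77, 0.98, 1.12 and 1.47 TPM. All 3 were lowest in the library with the least Chga and highest in the library labelled W4219, which had the most. Their r with Chga was 0.957 for Snap25, 0.952 for Syt4 and 0.981 for Svop (rho 0.929, 0.964 and 0.991), and 0.917, 0.983 and 0.960 with the 2 libraries of most extreme Chga dropped. These 3 were picked from the 39 after their values were seen, so these values are a description with no test. None of these genes passed limma over all genes, where the adjusted p was 0.944 for Snap25. Rab3d and Unc13b did not share the order: Rab3d ran from 20.5 to 54.1 TPM (r = 0.534, rho = 0.571) and Unc13b from 13.7 to 26.8 TPM (r = -0.525, rho = -0.357). Vamp2, Syt13, Doc2b, Rims2, Rph3al, Cadps2, Syn3 and Slc18a1 also had negative slopes in the 7, none of them called.

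**Figure D4:**
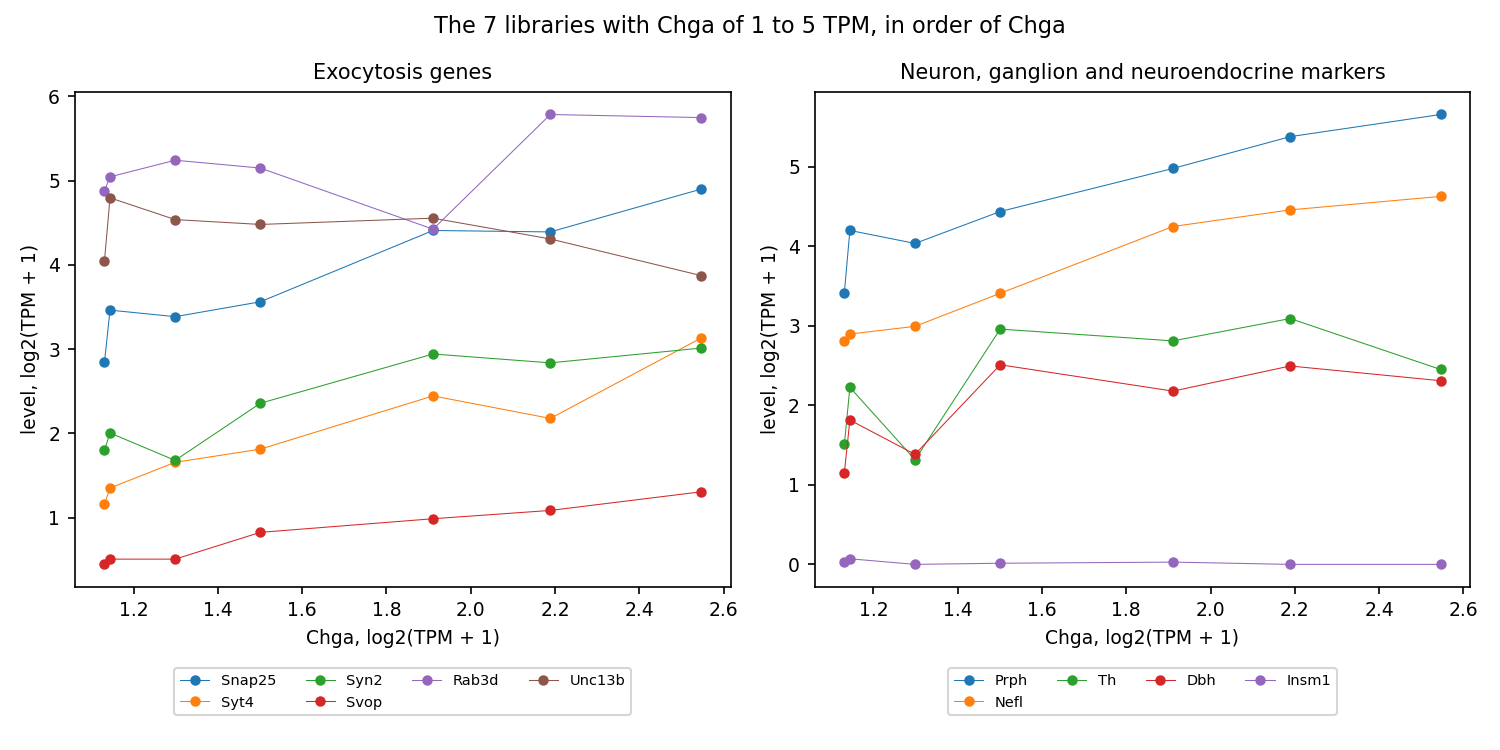
Levels in the 7 libraries with Chga of 1 to 5 TPM against Chga, both as log2(TPM + 1), for 6 members (left) and for markers of neurons, ganglia and neuroendocrine cells (right); lines join the libraries in order of Chga. Snap25, Syt4, Syn2 and Svop and the neuronal markers Prph and Nefl mostly climb from left to right, and Insm1 stays at or below 0.05 TPM. Th and Dbh are less ordered: they peak at 7.53 TPM (W4360) and 4.70 TPM (W4492) and stand at 4.47 and 3.96 TPM in W4219, which has the highest Chga.

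Markers of nerve cells moved with the members in the 72. Of 8 tested markers of neurons and ganglia, 7 rose and 0 fell (0.78% and 0% of all genes did), among them Nefl (slope 2.22, SE 0.27), Prph (2.37, SE 0.34) and Th (1.36, SE 0.19), which encode a neurofilament, peripherin and tyrosine hydroxylase. The list of 11 summed to 2.30 through 8.28 to 42.9 TPM per library, its most abundant gene was Uchl1 (median 3.92 TPM), and the medians of Dbh, Nefm and Elavl4 were among those under 0.1 TPM. The limit of 1 TPM was set on the mean over all libraries. Markers that are low in the 72, such as Nefm and Elavl4, could therefore be tested because of their levels elsewhere. No count without this limit is given for the marker lists. Of 3 tested Schwann cell markers, 1 rose and 0 fell; the list summed to 7.95 through 20.9 to 46.5 TPM, mostly Erbb3. Of 9 tested neuroendocrine markers, 5 rose (Chgb, Scg2, Scg3, Scg5 and Eno2) and 0 fell, and the list summed to 1.52 through 8.13 to 26.9 TPM, mostly Ncam1. The medians of Chgb, Scg2 and Scg3 were among those under 0.1 TPM, so the same limit holds for them. Insm1, a transcription factor of neuroendocrine cells, did not exceed 0.08 TPM in any of the 72. In the lists for mast cells, prostate luminal cells, basal cells, smooth muscle, leukocytes, endothelium, seminal vesicle and proliferation, limma called 0 genes in the 72, and 5 genes of them had a positive slope at an unadjusted p under 0.05 (1 basal, 2 smooth muscle and 2 endothelial). Over all 14618 genes, 1623 had a positive and 17 a negative slope at that limit. The part of nerve tissue in the slopes of the members was not tested.

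In the 7, limma called no marker, with 6 of 8 neuronal markers, 6 of 9 neuroendocrine markers and 2 of 3 Schwann cell markers having a positive slope at an unadjusted p under 0.05. Over all 14564 genes, 265 had a positive and 50 a negative slope at that limit. The neuronal list summed to between 53.3 and 196.5 TPM there, above every library of the 72. Prph ran from 9.69 to 49.5 TPM, Th from 1.49 to 7.53 TPM, and Dbh from 1.22 to 4.70 TPM. Each was higher than its median in the 72, where Dbh was at 0.065 TPM. Insm1 did not exceed 0.05 TPM in the 7.

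In the 36, where 9.94% of all genes rose and 24.2% fell, all 9 tested neuroendocrine markers rose, with Insm1 at a slope of 0.67 (SE 0.07). The list summed to 7.79 through 257.6 to 739.1 TPM, its most abundant gene was Ncam1 (median 66.1 TPM), and no marker had a median under 0.1 TPM. In the same libraries 5 neuronal markers rose (Prph, Nefl, Nefm, Uchl1 and Elavl4) and 1 fell, all 3 Schwann cell markers fell, and of the mast cell markers Kit rose while Cpa3, Mcpt4 and Tpsb2 fell. Krt18, Krt14, Ptprc and Cdh5 also fell, and 0 genes of the smooth muscle, seminal vesicle and proliferation lists were called by limma, with 1 of them at a negative slope at an unadjusted p under 0.05. Over all 14611 genes, 1850 had a positive and 4553 a negative slope at that limit. Without the 4, where 8.81% of all genes rose and 0.198% fell, 2 neuroendocrine markers rose (among them Pcsk1 by 1.16), Uchl1 rose by 0.25 and Stmn2 fell by 0.79. Limma then called 0 genes of the other lists, of which 2 luminal genes had a positive slope at an unadjusted p under 0.05. Over all 14610 genes, 3628 had a positive and 221 a negative slope at that limit in the 32. The 4 libraries themselves held Insm1 of 0.11, 0.33, 1.91 and 0.23 TPM, against a median of 28.1 TPM in the other 32. The part of these cell types in the slopes of the members was not tested.

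A list of 80 other genes of vesicle traffic and exocytosis gives the setting. In the 72, 4 of its 61 tested genes rose and 0 fell, beside 0.78% and 0% of all genes: Syngr3 (slope 0.79), a synaptogyrin, Snap91 (0.75), a clathrin adaptor of nerve terminals, Ap3b2 (0.45), the neuronal AP-3 subunit, and Syt16 (0.28). Ap3b2 and Syt16 had medians under 0.1 TPM in the 72, so they could pass the limit of 1 TPM because of their levels elsewhere. No count without this limit is given for this list. In the 36, 18 of 61 rose and 13 fell, beside 9.94% and 24.2% of all genes. The steepest rises were those of Snap91 (0.54), Stxbp5l (0.54) and Syt16 (0.45), and the steepest falls those of Stx3 (-0.25), Dnm2 (-0.24) and Snap23 (-0.24), which are forms of wide or epithelial expression. Without the 4, 5 of 61 rose, a share near the 8.81% of all genes, with Rab27a (0.50), Baiap3 (0.48) and Stx4a (0.30) the steepest, and Stxbp6 fell by 0.41, beside 0.198% of all genes that fell. The 4 libraries of low Chga held Snap23 at 25.7, 31.5, 22.6 and 39.3 TPM, above the highest of the other 32, which was 16.3 TPM.

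Pairs within a family were compared as log2 ratios. The scaling of a library cancels from such a ratio apart from the pseudocount, but not from Chga, so the slopes can move with it. With median-of-ratios scaling, Slc18a1 to Slc18a2 moved in the 72 from -0.12 to 0.69, not called either way. Sv2a to Sv2c moved there from -0.20, not called, to -0.35 (permutation test, adjusted p = 0.0286), and Syn2 to Syn3 from 0.81 to 0.69, called both times. Of 15 pairs in each of 3 sets, 45 ratios in all with another 15 without the 4 libraries, 6 passed after adjustment over the 45. In the 72 the ratio of Syn2 to Syn3 rose with Chga by 0.81 (95% interval 0.47 to 1.15, permutation p = 2e-05, adjusted 0.00045). In the 36 the ratio of Unc13a to Unc13b rose by 0.48 (95% interval 0.31 to 0.65, permutation p = 1e-05, adjusted 0.00045), from a lowest log2 ratio of -2.21 through a median of 1.24 to 3.17. The ratio of Sv2a to Sv2c rose by 0.55 (95% interval 0.35 to 0.76), and those of Rab3a, Rab3b and Rab3c to Rab3d by 0.39, 0.35 and 0.40. None of the 5 calls was kept without the 4 libraries of low Chga, where 0 of 15 permutation tests passed with a smallest adjusted p of 0.0586. That value was shared by 4 other ratios, which had negative slopes in the 32: Cplx1 to Cplx2 (-0.68, 95% interval -1.20 to -0.15), Cadps to Cadps2 (-0.61, -1.09 to -0.12), Syt1 to Syt7 (-0.35, -0.57 to -0.12) and Rph3a to Rph3al (-0.30, -0.53 to -0.07). For the 5, the slope was then 0.07 for Unc13a to Unc13b (95% interval -0.23 to 0.37), 0.04 for Sv2a to Sv2c and 0.07 for Rab3a to Rab3d. It was 0.35 for Rab3b to Rab3d (-0.01 to 0.70) and 0.25 for Rab3c to Rab3d (-0.14 to 0.63). Without the 2 libraries of most extreme Chga in the 32, r fell from 0.344 to -0.014 for Rab3b to Rab3d and from 0.234 to -0.155 for Rab3c to Rab3d. In the 7, 0 of 15 passed in exact permutation tests, with an adjusted p of 0.0702 for Syt4 to Syt11.

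**Figure D5:**
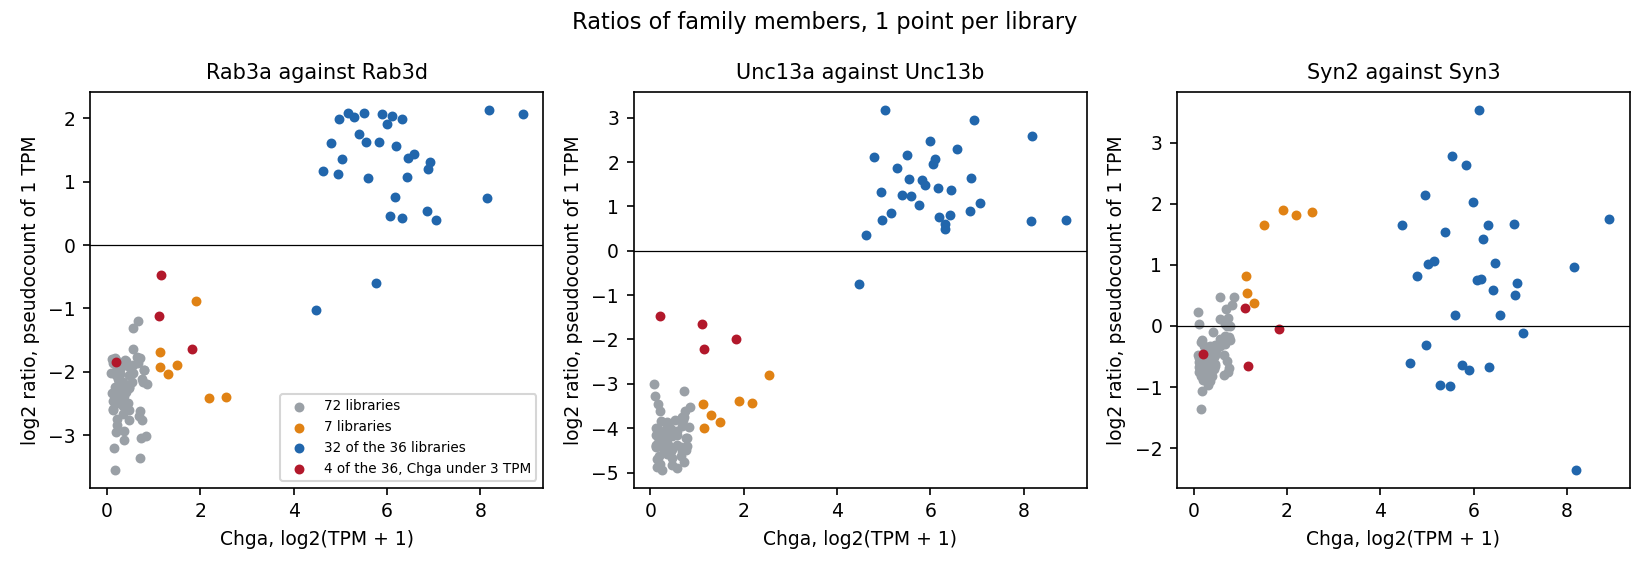
Log2 ratio of paired family members against log2(Chga + 1), 1 point per library, coloured by set of libraries. In the 36 the ratio of Unc13a to Unc13b is lowest in libraries of low Chga, and its slope falls from 0.48 to 0.07 without those 4.

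The 5 genes of the whole table most correlated with Chga were read in each set. In the 72 they were Nefl (r = 0.698), Sult4a1 (0.691), Tubb3 (0.681), Stmn3 (0.679) and Soga3 (0.673), each with a permutation p of 1e-05 for r and a rho between 0.474 and 0.533. In the 7 they were Soga3, Gm5733, Scg3, Lhfpl5 and the member Svop. In the 36 they were Rundc3a (r = 0.915, rho = 0.746, permutation p = 1e-05 for both), Ptprn2, Slc7a14, Scg5 and Gm11837, and without the 4 they were Tspan5 (r = 0.815, rho = 0.732, permutation p = 1e-05 and 2e-05), Qsox2, Nelfcd, Lbh and Wscd1. These genes were picked for this measure out of all genes, so their r is a description.

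Promoters are shown for members that rose with Chga in the 72 (Cplx1, Rab3c, Amph, Slc18a2), for Unc13a, which rose in the 36, and for Rab3d, which was called in no set. The sequences are from RefSeq on GRCm38.p6, 300 bases each across the annotated start, and 28 of the 39 members matched, with 36 promoters. Each is written 5′ to 3′ on the strand of its gene, with any match to the 3 motifs searched in capitals, and the motifs were chosen after the data were seen. CAGCTG, an E-box, a site of basic helix-loop-helix factors, was in 13 of the 36 promoters, those of 13 members, against 16.3% of all 32851 promoters. TGACGTCA, the cAMP response element, was in 1 of the 36, that of Slc18a2, against 1.79% of all promoters. TTCAGCACC, the left part of RE1, the element bound by the neuronal repressor REST, was in 1 of the 36, that of Unc13a, where the capitals are its reverse complement, against 0.371% of all promoters. Both strands were searched and the motifs share no overlap in the promoters shown. Cplx1 lies at chr5:108549978-108550277 (minus strand), Rab3c at chr13:110280157-110280456 (minus), Amph at chr13:18948101-18948400 (plus), Slc18a2 at chr19:59260628-59260927 (plus), Unc13a at chr8:71671708-71672007 (minus) and Rab3d at chr9:21918134-21918433 (minus).
Cplx1: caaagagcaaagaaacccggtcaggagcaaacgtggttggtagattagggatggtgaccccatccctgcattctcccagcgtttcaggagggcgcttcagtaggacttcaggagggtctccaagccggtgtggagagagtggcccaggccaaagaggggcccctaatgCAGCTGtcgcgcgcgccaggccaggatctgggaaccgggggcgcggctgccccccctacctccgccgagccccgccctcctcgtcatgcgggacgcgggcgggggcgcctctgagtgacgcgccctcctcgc
Rab3c: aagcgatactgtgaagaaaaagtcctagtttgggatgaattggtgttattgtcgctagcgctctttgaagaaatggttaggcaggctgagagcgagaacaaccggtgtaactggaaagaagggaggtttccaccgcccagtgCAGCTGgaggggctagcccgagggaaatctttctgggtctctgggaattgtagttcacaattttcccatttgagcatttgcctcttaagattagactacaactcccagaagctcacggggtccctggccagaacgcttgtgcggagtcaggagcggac
Amph: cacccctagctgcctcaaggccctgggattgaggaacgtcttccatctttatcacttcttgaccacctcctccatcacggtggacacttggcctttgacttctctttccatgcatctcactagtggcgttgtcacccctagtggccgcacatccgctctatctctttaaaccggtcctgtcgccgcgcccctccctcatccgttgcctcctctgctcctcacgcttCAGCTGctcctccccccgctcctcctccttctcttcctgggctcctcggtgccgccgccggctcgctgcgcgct
Slc18a2: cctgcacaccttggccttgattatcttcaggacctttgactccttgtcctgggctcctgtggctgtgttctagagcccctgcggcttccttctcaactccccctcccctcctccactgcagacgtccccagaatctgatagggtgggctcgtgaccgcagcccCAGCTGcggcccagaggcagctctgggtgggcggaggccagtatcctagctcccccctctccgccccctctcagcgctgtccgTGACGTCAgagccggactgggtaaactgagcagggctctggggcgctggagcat
Unc13a: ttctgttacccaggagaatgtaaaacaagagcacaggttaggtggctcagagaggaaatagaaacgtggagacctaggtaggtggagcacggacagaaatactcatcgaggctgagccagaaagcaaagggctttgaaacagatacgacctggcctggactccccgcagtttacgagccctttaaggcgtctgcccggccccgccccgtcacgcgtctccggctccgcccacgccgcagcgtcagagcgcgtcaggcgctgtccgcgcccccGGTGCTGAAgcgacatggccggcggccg
Rab3d: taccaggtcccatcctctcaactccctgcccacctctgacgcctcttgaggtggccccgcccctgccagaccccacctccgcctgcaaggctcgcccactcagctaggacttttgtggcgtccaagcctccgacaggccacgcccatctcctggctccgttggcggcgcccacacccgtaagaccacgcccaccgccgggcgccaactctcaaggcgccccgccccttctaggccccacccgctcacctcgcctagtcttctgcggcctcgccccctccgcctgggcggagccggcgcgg

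Of the other members that rose in the 72 and have a promoter in the table, Syt1 holds the E-box in 1 of its 2 promoters and Napb and Syn2 lack it. Stx1a, Cplx2, Rab3a, Rph3al, Bsn, Sv2a and Snph, which were not called there, hold the E-box, as does Rph3a, which was outside the limma fit. Rab3a and Rph3a do not hold it in all of their promoters. The promoters of the members were richer in G and C than all promoters, with a median of 60.5% against 52.7%, and held a median of 16.5 CG pairs against 7. The 10 genes that rose in the 72 lie on chromosomes 2 (Snap25 and Napb), 5 (Cplx1 and Svop), 6, 10, 13 (Rab3c and Amph), 18 and 19. Grouping by position was not tested. Exons of some members overlap genes on the opposite strand, by 14.5% of exon bases for Syt4, 14.1% for Syn3 (with Timp3), 9% for Rab3b, 5.53% for Doc2b, 5.13% for Syt7, 4.12% for Pclo, 3.92% for Unc13a, 3.53% for Svop and less for others, and since the use of strand is not stated, reads of such a neighbour could be counted in these values.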

How the data were processed

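Total RNA of the tissue, depleted of ribosomal RNA, was sequenced by the authors, who aligned reads with Bowtie2 2.2.5 to allele-specific transcriptomes built with Seqnature on GRCm38 and estimated abundance with RSEM 1.2.20, after base calling with CASAVA 1.8.2 and trimming with Trimmomatic. The deposited values are TPM as the authors computed them with RSEM. The annotation release is not given in the sources used here, the use of strand is not stated, and the depth of each library is unknown beyond a minimum of 43000000 read pairs in the labels. Every column was used.

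Values were taken as log2(TPM + 1), and genes averaging 1 TPM or more were kept. Sets of libraries were found with a mixture of 2 normals on the first principal component and then on Chga, called separate where the Bayesian information criterion fell by over 10, Ashman D exceeded 2 and each set held at least 6 libraries. Within each set, limma 3.58.1 in R 4.3.3 fitted each gene on log2(Chga + 1), two-sided, with Benjamini-Hochberg adjustment over all genes tested at 0.05. Pearson r, Spearman rho and log2 ratios of paired members had two-sided permutation tests of 100000 resamples (exact for 7 libraries) in Python 3.11.15 with numpy 2.4.6. The ratios used a pseudocount of 1. Alternatives were a pseudocount of 0.1, no filter, rescaling without the 20 largest genes, median-of-ratios scaling, ranks, Chgb as reference, the share of the 20 largest genes as a covariate, sets found without the listed genes, and subsets of libraries. The share of the 20 largest genes ran from 48.9% to 81.8% of TPM.

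Genes named are all members and Chga, the 3 steepest called genes of the vesicle traffic list in each direction, marker genes of the lists (neuroendocrine, neuron and ganglion, Schwann cell, mast cell, prostate luminal, basal, smooth muscle, leukocyte, endothelial, seminal vesicle and proliferation), and the 5 genes with the largest r with Chga. Members and lists were chosen with earlier results of these data known. The procedure was also run on simulated data, of which no result is given or used here. Positions are from GENCODE vM21 and promoters from RefSeq.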

Additional observations from a re-analysis of the deposited data

How the results depend on the processing

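In the 72 libraries, 8 of the 10 rising members kept their call under all 14 alternatives; Slc18a2 lost it under 4 (rescaling, median-of-ratios scaling, ranks, and without libraries with Chga under 0.1 TPM) and Amph under 1 (titles in the 4000s). The count of 10 moved to 21 with Chgb as reference, where all-gene calls also moved, to 6133 up and 33 down, and to 24 with the 79 libraries in 1 fit, where all genes gave 2708 up and 20 down; the causes were not tested. In the 36, the count of 21 (all genes 1452 up and 3536 down) moved to 3 with ranks (176 up and 8 down), to 0 in the 15 libraries numbered in the 4000s (0 up and 0 down by limma, at adjusted p), to 6 without the 4 libraries of low Chga (1287 up and 29 down) and to 4 without those 4 and the library of highest Chga (1715 up and 53 down). In the 32, it was 0 after rescaling (all genes 0.446% up and 0.096% down), 1 with median-of-ratios scaling (1.67% up and 0.459% down) and 0 with the share of the 20 largest genes as a covariate (0.397% up and 0.0342% down), against 6 as deposited. The settings named so far after the ranks have fewer libraries than the 36. The scalings and the covariate in the 32 use the same 32 libraries as the 6 calls. The causes of these moves were not tested. With the share of the 20 largest genes as a covariate, 18 rose, and all genes gave 1174 up and 818 down. The count of falling members moved from 0 to 1 with Chgb.

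Slopes of members called in the 36 changed sign as follows; members not called there are not listed. Within titles in the 4000s they were -0.0943 for Snap25, -0.164 for Vamp2, -0.156 for Syt1, -0.0373 for Rab3b, -0.0576 for Bsn, -0.0435 for Pclo, -0.123 for Sv2b, -0.171 for Syn3 and -0.0438 for Amph. Without the 4 they were -0.149 for Cplx1, -0.0533 for Syt1, -0.0703 for Syt11, -0.213 for Syt13, -0.0908 for Bsn, -0.00858 for Syn3 and -0.0232 for Amph. Without those 4 and the highest library they were -0.0962 for Syt1, -0.0992 for Syt11, -0.11 for Syt13, -0.178 for Bsn and -0.0467 for Syn3. In the 32 after rescaling they were -0.246 for Cplx1, -0.11 for Syt1, -0.141 for Syt11, -0.3 for Syt13, -0.133 for Bsn, -0.0825 for Sv2b, -0.0639 for Syn3 and -0.106 for Amph. With median-of-ratios scaling they were -0.203 for Cplx1, -0.119 for Syt1, -0.168 for Syt11, -0.25 for Syt13, -0.154 for Bsn, -0.0359 for Sv2b, -0.0288 for Svop, -0.0655 for Syn3 and -0.064 for Amph. With the covariate they were -0.235 for Cplx1, -0.0365 for Syt1, -0.0989 for Syt11, -0.239 for Syt13, -0.00702 for Bsn, -0.21 for Sv2b and -0.0963 for Amph. The cause was not tested.

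Members detected numbered 36 at 0.1 TPM against 16 at 1 TPM, by construction of the lower limit. Family ratios called in the 72 numbered 5 with a pseudocount of 0.1, 2 with median-of-ratios scaling and 3 with rescaling, against 1; in the 7, 1 with a pseudocount of 0.1 against 0. The cause was not tested.

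The settings without the 4, the scalings and the covariate in the 32, without the highest library, without both, with the 79 in 1 fit and with a mean-variance trend were chosen after seeing the data. No paired analysis was possible because the labels name no pairs of libraries. Apart from Napb, the members that rose in the 72 had medians under 1 TPM there, and the depth of each library is unknown.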
